A study of Rattus norvegicus with 24 samples.

Results

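Genes for integrins, cadherins, claudins and connexins, together with the proteins that anchor or bind them, were followed in mesenteric arteries of female rats given a sex hormone. The members were every probe with 1 gene symbol starting with Itga, Itgb, Cdh and a digit, Cldn, Pcdh, or Gja, Gjb, Gjc or Gjd and a digit. Jup, Ctnnb1, Ctnna1, Tjp1, Vcam1 and Icam1 were added, and Itga8 and Gja1 were left out. This gave 48 probes for 39 genes, out of 10399 probes on the array, of which 7294 carried 1 gene symbol from 6455 genes in all. All 48 passed the filter on missing values, 3 or more animals measured in every group, and were tested among 10228 probes. The rule goes by gene symbol alone, but it was set with earlier results of these data known. By family they were 5 integrin alpha, 6 integrin beta, 4 Vcam1 and Icam1, 8 cadherin, 2 protocadherin, 4 catenin and ZO-1, 5 claudin and 10 connexin probes. Another 4 probes, for Itgb1bp1, Itgb1bp2, Itgbl1 and Cldnd1, share the start of a family's symbol without belonging to that family.

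The 3 groups were rats given estradiol benzoate at 0.15 mg/kg per day, rats given testosterone at 1 mg/kg per day and rats given the sesame oil vehicle, with 4 animals in each. Every animal, vehicle animals included, was a Sprague Dawley female without ovaries: ovariectomy at 3 weeks of age, 2 weeks of recovery, then 4 days of intraperitoneal injections, with the arteries taken at 5.5 weeks. The vehicle group therefore stands for young rats without ovarian hormones, not for intact females. The arteries were freed of fat, veins and connective tissue, and each animal gave 1 cRNA, read on 2 one-colour CodeLink arrays called AA and AB. Values are given per animal as log2 intensity averaged over its 2 arrays, where 0 lies close to the median of an array, and animals keep the number of their label.

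Integrins are pairs of an alpha and a beta subunit that hold a cell to the matrix or to another cell, and in an artery they tie smooth muscle and endothelium to laminin, collagen and fibronectin. Cadherins join neighbouring cells through calcium-dependent contacts and are linked to actin by catenins. Claudins seal tight junctions between epithelial or endothelial cells, and connexins form the gap junctions through which ions and small molecules pass along and across the vessel wall.

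The arrays were alike in scale, with medians of 0.926 to 0.951 and a correlation between the 2 arrays of an animal of 0.976 to 0.993, while blank spots ranged from 152 to 665 per array. The artery was recognisable by endothelial Pecam1, with a mean of 4.88, and smooth muscle Cnn1, with a mean of 5.11. In 2 animals genes of another organ stood out most. A list of 11 hepatocyte genes lay 3.16 above its mean over the animals in vehicle animal 5. A list of 12 pancreas genes lay 5.04 above in estradiol benzoate animal 3. Smaller excesses included vehicle animals 3 (1.06) and 4 (0.52) for hepatocyte genes and estradiol benzoate animal 8 (1.45) for pancreas genes. Median differences of the hepatocyte list from vehicle were -0.79 with estradiol benzoate and -1.54 with testosterone, with 1 gene higher in each. Those of the pancreas list were 2.29 and 0.41, with 12 and 10 genes higher, and 0 called in either list. The part of either list in the members' differences was not tested. A list of white adipocyte genes, 12 of 19 measured, was higher than vehicle for 11 with either hormone, with median differences of 0.38 for estradiol benzoate and 0.32 for testosterone and 0 called. Its summed intensity was 115 to 124 with estradiol benzoate, 104 to 145 with testosterone and 92.8 to 113 with vehicle, so that estradiol benzoate animals lay above all vehicle animals. None of the 12 was in the dimmest 25% of all probes, with means of 4.89 for Fabp4, 4.64 for Adipoq and 4.48 for Pnpla2, and its part in the members' differences was not tested. In whole arteries, fewer cells of a type and less RNA per cell cannot be told apart.

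None of the 48 probes passed an adjusted p under 0.05 in limma's fit over all probes, in any of the 3 pairwise comparisons or in the F test across the groups. Among all tested probes that threshold was passed by 0% for estradiol benzoate against vehicle, 0.0489% for testosterone against vehicle, 0.0293% for estradiol benzoate against testosterone and 0.00978% in the F test. The lowest adjusted p of a member in limma's fit was 0.159 for estradiol benzoate against vehicle, 0.227 for testosterone against vehicle, 0.999 for estradiol benzoate against testosterone and 0.201 in the F test. What follows therefore gives sizes and animals, and none of the differences described passed the test.

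At an unadjusted p under 0.05, estradiol benzoate was higher than vehicle for 4 member probes, against 6.77% of all probes, and lower for 4, against 6.69%. Testosterone was higher than vehicle for 6, against 6.62%, and lower for 2, against 7.43%. Between the hormones, 0 were higher with estradiol benzoate, against 2.41%, and 1 was lower, against 1.71%. The F test reached an unadjusted p under 0.05 for 7 probes, against 11.9% of all probes. Members thus made up 16.7% of 48 in each hormone's comparison with vehicle, beside 13.5% and 14.0% of all probes, and 2.08% between the hormones, beside 4.13%. The median member difference was 0.04 for estradiol benzoate minus vehicle and 0.10 for testosterone minus vehicle, against -0.01 over all probes in both. Both hormone comparisons use the same 4 vehicle animals. Without vehicle animal 5 the members at an unadjusted p under 0.05 numbered 11 for estradiol benzoate against vehicle, 5 for testosterone against vehicle and 1 between the hormones. Without estradiol benzoate animal 3 they numbered 6, 7 and 2.

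Groups without overlap were as rare among the members. All 4 estradiol benzoate animals lay above all 4 vehicle animals for 2 probes (Cdh2 and Itgb4 probe 21821), against 3.53% of all probes, and below them for 1 (Gjd2), against 4.28%. Testosterone lay above vehicle without overlap for 0, against 2.45%, and below for 1 (Cdh17), against 3.14%. Estradiol benzoate lay above testosterone for 1 (Itgb4 probe 826), against 1.88%, and below for 2 (Cldn11 probe 14447 and Pcdhb12), against 1.17%. With 4 animals against 4, an exact permutation test over the 70 splits cannot go below p = 0.0286, two-sided, which is what each of these gives. These counts of 1 to 3 probes per comparison lie too close to the background to set the members apart from other genes.

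**Figure D1:**
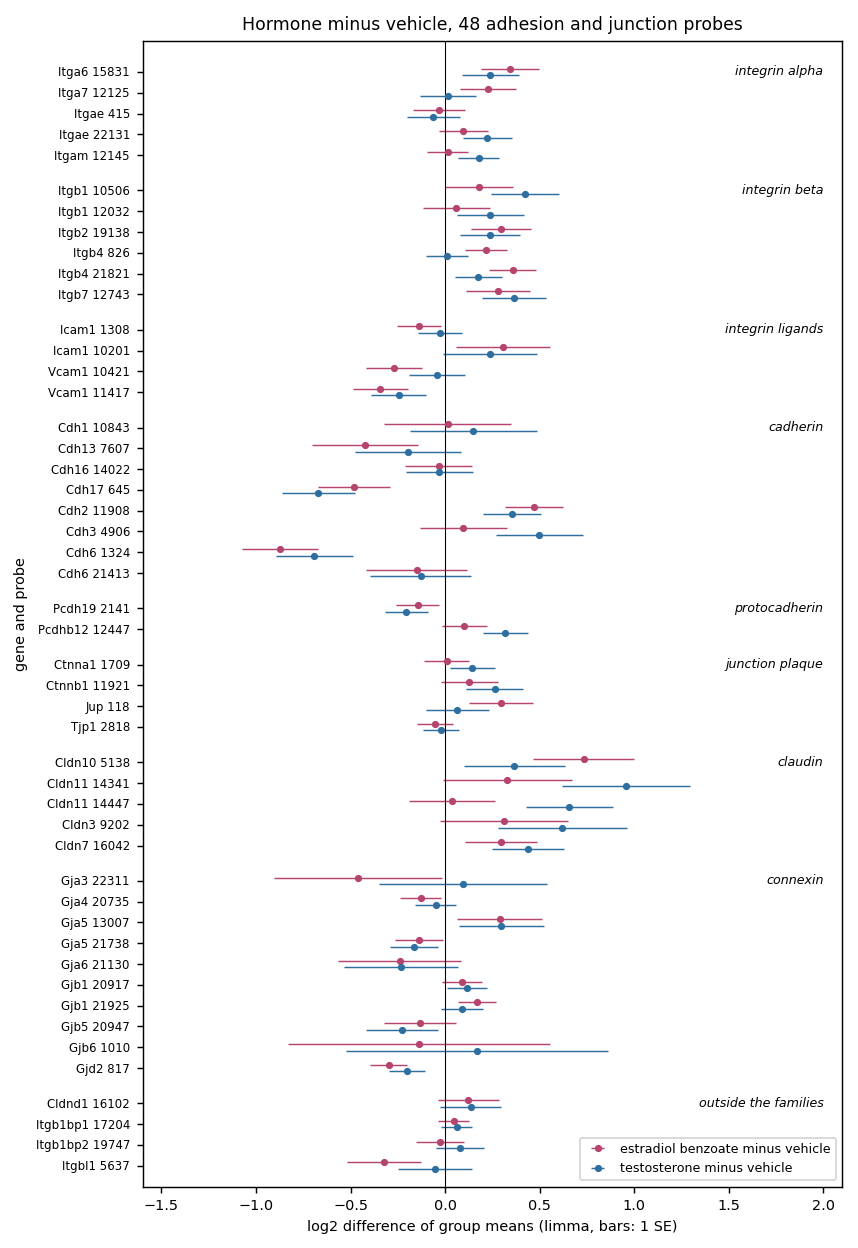
The log2 difference of each hormone group from vehicle is plotted for the 48 probes, grouped by family, with points for limma's estimates and bars of 1 SE (4 animals per group). The claudin points lie right of 0 for both hormones, Cdh6 probe 1324 and Cdh17 lie furthest left among the cadherins, and 6 of 6 integrin beta probes lie right of 0.

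Among the integrins, the laminin receptor pair Itga6 and Itgb4 had its higher values with estradiol benzoate. Itga6 encodes an alpha subunit that binds laminin, and Itgb4 the beta subunit that pairs with it and, in epithelium, anchors hemidesmosomes. Itga6 read 2.57, 3.11, 2.82 and 2.85 in estradiol benzoate animals 2, 3, 5 and 8, 2.64, 2.49, 2.83 and 2.98 in testosterone animals 2, 4, 6 and 8, and 2.48, 2.52, 2.77 and 2.20 in vehicle animals 3, 4, 5 and 8. Itgb4 probe 21821 read 1.48, 1.82, 1.60 and 1.64 with estradiol benzoate, 1.67, 1.20, 1.49 and 1.46 with testosterone, and 1.28, 1.37, 1.43 and 1.03 with vehicle. Its lowest estradiol benzoate animal thus lay just above its highest vehicle animal, whereas for Itga6 estradiol benzoate animal 2 lay within the vehicle range. The difference of estradiol benzoate minus vehicle was 0.36 ± 0.12 for Itgb4 probe 21821 and 0.34 ± 0.15 for Itga6 (SE, n = 4 each), with adjusted p = 0.284 and 0.356 in limma. Probe 826, the other Itgb4 probe, read 2.04, 2.18, 2.15 and 2.12 with estradiol benzoate, against 1.93, 1.79, 2.03 and 1.92 with testosterone and 1.88, 1.97, 2.18 and 1.61 with vehicle. It differed by 0.21 from vehicle, with vehicle animal 5 as high as the estradiol benzoate animals, and by 0.30 without that animal, but by 0.11 without vehicle animal 8. Without estradiol benzoate animal 3, the highest for all 3 probes, the differences from vehicle were 0.29 (Itgb4 probe 21821), 0.25 (Itga6) and 0.20 (Itgb4 probe 826).

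Itga6 and Itgb4 also varied together from animal to animal. Over the 12 animals Itga6 correlated with Itgb4 probe 21821 at Pearson's r = 0.83 (permutation p = 0.00081, adjusted p = 0.0081 over 10 probe pairs) and Spearman's rho = 0.78 (permutation p = 0.00415, adjusted p = 0.0415). With probe 826 the values were r = 0.79 (permutation p = 0.00246, adjusted p = 0.0123) and rho = 0.69 (permutation p = 0.0174, adjusted p = 0.0578). Leaving out the 2 animals farthest from the median of Itga6, estradiol benzoate animal 3 and vehicle animal 8, lowered r to 0.58 and 0.53. Estradiol benzoate animal 3 is also the animal highest in the pancreas list. With each group's mean removed, r over all 12 animals was 0.75 and 0.80. Both of those animals stay in these values, so how far a relation within groups rests on them was not tested. The 6 gene pairs behind this count were picked for known partnerships after values had been seen. Among their ligands Lama1, a laminin alpha chain, differed by -0.61 for testosterone minus vehicle at a level of -6.24 with testosterone and -5.64 with vehicle (adjusted p = 0.355, limma).

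**Figure D2:**
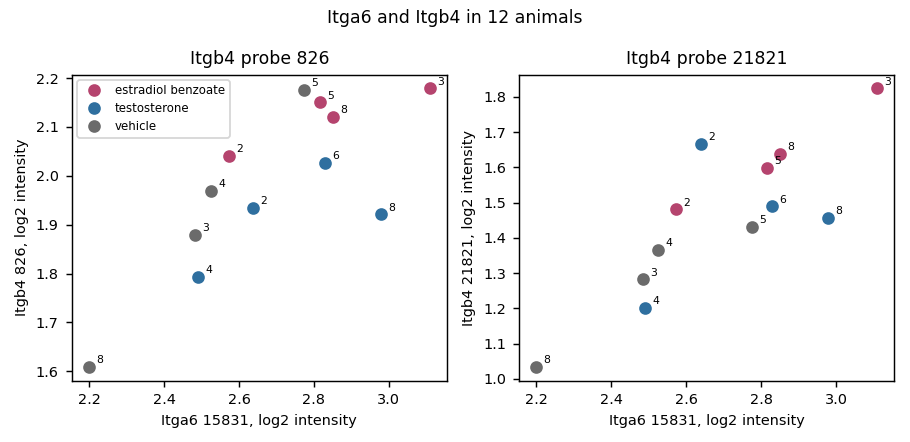
Log2 intensity of Itga6 (x axis) is plotted against that of each Itgb4 probe (y axis) for the 12 animals, 1 point per animal with its number and coloured by group. Vehicle animal 8 is lowest and estradiol benzoate animal 3 highest on both axes of both panels, and the points between them still slope upward.

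Of the subunits found on most adherent cells, Itgb1, the common beta partner of collagen, laminin and fibronectin receptors, was measured by 2 probes. Probe 10506 read 2.57, 2.43, 2.87 and 2.84 with estradiol benzoate, 2.91, 2.86, 2.95 and 2.98 with testosterone, and 2.05, 2.67, 2.29 and 2.99 with vehicle. The 4 testosterone animals were tightly grouped (SD 0.05) and the vehicle animals widely spread (SD 0.41), with vehicle animal 8 above all the others. Testosterone minus vehicle was 0.42 ± 0.18 (SE, n = 4 each, adjusted p = 0.334 in limma) and 0.24 for probe 12032, and estradiol benzoate minus vehicle was 0.18 and 0.06. Without vehicle animal 5 the estradiol benzoate difference of probe 12032 was -0.04, so the count of 6 of 6 integrin beta probes above vehicle does not hold without it. For testosterone it does not hold without vehicle animal 8, where Itgb4 probe 826 differed by -0.09.

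Itga7, the laminin-binding alpha subunit of muscle cells, read 3.91, 3.54, 3.43 and 3.61 with estradiol benzoate, 3.74, 3.25, 3.56 and 3.09 with testosterone, and 3.32, 3.54, 3.41 and 3.32 with vehicle. The ranges overlapped, and the differences from vehicle were 0.23 with estradiol benzoate and 0.02 with testosterone. It did not follow Itgb1 across animals (r = -0.06 and rho = -0.12 with probe 10506, r = 0.23 and rho = 0.41 with probe 12032, permutation p of r 0.848 and 0.475). Itgb1-binding proteins had small differences: Itgb1bp1 differed from vehicle by 0.05 and Itgb1bp2, also called melusin, by -0.03 with estradiol benzoate, and by 0.06 and 0.08 with testosterone. Itgbl1, a secreted protein with integrin-like repeats, averaged 2.52 ± 0.28 with estradiol benzoate, 2.79 ± 0.33 with testosterone and 2.85 ± 0.27 with vehicle (SD, n = 4 each).

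The leukocyte integrins Itgb2, Itgam, Itgb7 and Itgae, which hold white blood cells to endothelium or epithelium, differed from vehicle by 0.36 or less. Itgb2, the beta subunit shared by several leukocyte integrins, read -0.63, -0.78, -1.0 and -1.13 with estradiol benzoate, -1.16, -0.81, -0.78 and -1.02 with testosterone, and -1.41, -1.24, -0.76 and -1.29 with vehicle. All 8 hormone-treated animals lay above the 3 other vehicle animals, and vehicle animal 5 lay among them. The difference was 0.29 for estradiol benzoate minus vehicle and 0.23 for testosterone minus vehicle, and without vehicle animal 5 it was 0.43 and 0.37 (adjusted p = 0.243 and 0.323 in limma). Itgam, the alpha M subunit of macrophages and neutrophils that pairs with Itgb2, averaged -0.09 ± 0.18 with estradiol benzoate, 0.07 ± 0.16 with testosterone and -0.11 ± 0.07 with vehicle (SD, n = 4 each). Itgb7, the beta subunit of gut-homing lymphocytes, differed from vehicle by 0.28 with estradiol benzoate and 0.36 with testosterone. Its ranges overlapped, at -1.78 to -1.27 with estradiol benzoate, -1.79 to -1.14 with testosterone and -2.03 to -1.47 with vehicle. Vehicle animal 4, at -1.47, lay above most animals of both hormone groups. Itgae, the alpha E subunit that pairs with Itgb7 and binds E-cadherin, gave 2 probes that disagreed: testosterone minus vehicle was -0.06 for probe 415 and 0.22 for probe 22131, which is in the dimmest 25% of all probes. Across the 12 animals Itgb7 ran against probe 415 (r = -0.63, rho = -0.64) and with probe 22131 (r = 0.64, rho = 0.55), each with a permutation p of r adjusted to 0.0507, and without vehicle animal 5 and testosterone animal 2 the second r was 0.15. Itgam and Itgb2 gave r = 0.19 and rho = 0.22 (permutation p = 0.543 and 0.497).

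Markers of the cells that carry these integrins are set beside them here. A list of 13 leukocyte genes, 7 of them in the dimmest 25%, was higher than vehicle for 11 with estradiol benzoate and 10 with testosterone, with median differences of 0.44 and 0.41 and 0 called. Its summed intensity, to which bright genes add most, was 17.3 to 20.5 with estradiol benzoate, 16.8 to 21.2 with testosterone and 17.1 to 20.4 with vehicle. Its mean log2 deviation over genes was -0.02 to 0.27 with estradiol benzoate, -0.09 to 0.23 with testosterone and -0.45 to -0.11 with vehicle. By that measure every hormone-treated animal lay above every vehicle animal, the closest at -0.09 and -0.11. A list of 8 macrophage genes went the other way: 3 were higher than vehicle with estradiol benzoate and 1 with testosterone. Its median differences were -0.05 and -0.37, with 0 called. Between the hormones, 8 of 8 were higher with estradiol benzoate, with a median of 0.22 and 0 called. It summed to 50.3 to 67.6 with estradiol benzoate, 42.1 to 59.6 with testosterone and 52.5 to 85.1 with vehicle. Vehicle animal 5 was highest, at 0.53 above the mean of all animals. Among the defining genes Ptprc had a mean of -0.07, Cd3d -1.84 and Cd4 -4.67. Their part in the integrin values was not tested.

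**Figure D3:**
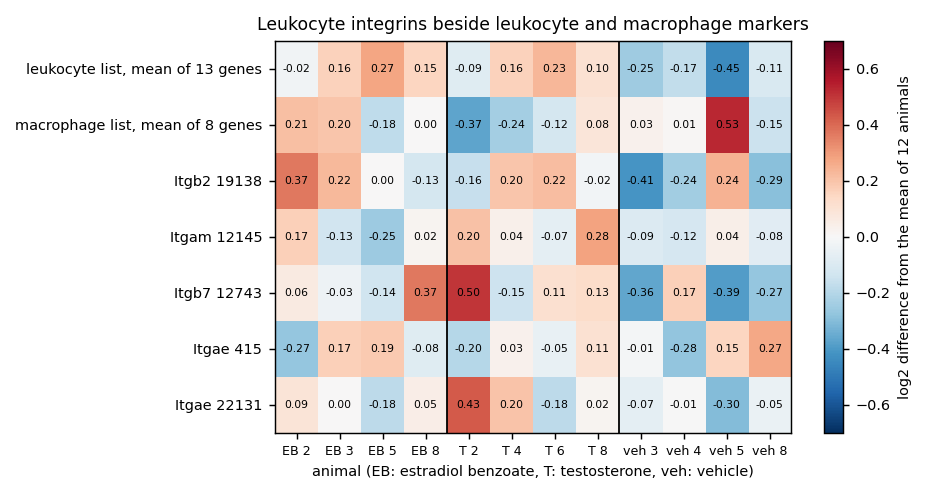
Each cell gives the log2 difference of 1 animal from the mean of the 12 animals, for the leukocyte and macrophage lists (mean over genes) and for 5 leukocyte integrin probes, with estradiol benzoate, testosterone and vehicle animals from left to right. Vehicle animal 5 is lowest in the leukocyte list (-0.45), highest in the macrophage list (0.53) and highest of the vehicle animals in Itgb2.

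Vcam1 and Icam1 are the endothelial surface proteins to which leukocyte integrins bind. Vcam1 probe 11417 read 2.68, 2.62, 2.60 and 2.66 with estradiol benzoate, 2.53, 2.82, 2.58 and 3.03 with testosterone, and 2.89, 2.67, 3.06 and 3.33 with vehicle. Estradiol benzoate animals were the most alike (SD 0.04) and vehicle animal 4 reached down to their range, so the groups overlapped by 1 animal. The difference was -0.34 ± 0.15 for estradiol benzoate minus vehicle (SE, n = 4 each, adjusted p = 0.335 in limma) and -0.25 for testosterone minus vehicle. Vcam1 probe 10421 gave -0.27 and -0.04. For Icam1 the 2 probes disagreed in sign: probe 1308 differed from vehicle by -0.14 with estradiol benzoate and -0.03 with testosterone, and the dimmer probe 10201 by 0.31 and 0.24.

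The promoter of Vcam1 is shown because it is a textbook target of NF-kB, and that of Cdh6 because its probe 1324 had the lowest p of the members in estradiol benzoate against vehicle. Both are the 250 bases before the gene start from RefSeq, GRCr8, on the minus strand: Vcam1 at chr2:206742784-206743033 and Cdh6 at chr2:63952288-63952537. Capitals mark letters that match a searched motif on either strand.
Vcam1: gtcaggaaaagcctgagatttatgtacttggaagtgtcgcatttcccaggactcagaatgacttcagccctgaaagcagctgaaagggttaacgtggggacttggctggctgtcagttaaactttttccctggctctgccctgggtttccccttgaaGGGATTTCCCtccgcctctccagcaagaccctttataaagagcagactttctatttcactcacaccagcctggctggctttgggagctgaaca
Cdh6: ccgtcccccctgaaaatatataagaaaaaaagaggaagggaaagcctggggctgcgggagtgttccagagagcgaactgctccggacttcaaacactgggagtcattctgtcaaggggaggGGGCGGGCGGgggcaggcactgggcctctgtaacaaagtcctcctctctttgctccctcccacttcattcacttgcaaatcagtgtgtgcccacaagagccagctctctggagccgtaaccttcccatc
The NF-kB motif searched was GGGRNWYYCC, where R is A or G, N any base, W is A or T and Y is C or T. In Vcam1 the capitals are 1 match to it, whose first base lies 93 bases before the start. The near match gggtttcccc just upstream, with t in place of R, was not counted. Vcam1 was the only member gene with a match, beside 3.54% of all 33465 promoters. In Cdh6 they are 2 overlapping matches to the Sp1 motif GGGCGG, 129 and 125 bases before the start. The Sp1 motif was found in 13 of the 25 member genes with a promoter entry, beside 30.5% of all promoters. A full estrogen response element (GGTCA, any 3 bases, TGACC) was in 0 of the 25, beside 0.024% of all promoters. A full androgen response element (AGAACA, any 3 bases, TGTTCT) was also in 0, beside 0.012%. The AP-1 motif TGANTCA and the E-box CACGTG were in 0 member genes, beside 6.34% and 5.59%. These windows hold or lack letters, and say nothing about binding.

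Among the cadherins, Cdh6 and Cdh17 were lower in both hormone groups and Cdh2 was higher. Cdh6, or K-cadherin, is best known from kidney and developing tissue. Its probe 1324 read -2.96, -3.10, -2.65 and -2.54 with estradiol benzoate, -2.66, -2.81, -2.34 and -2.72 with testosterone, and -1.57, -1.78, -2.54 and -1.86 with vehicle. Vehicle animal 5 was the lone vehicle animal within the hormone range, and its value rests on the AB array because the AA spot was blank. The difference was -0.87 ± 0.20 for estradiol benzoate minus vehicle and -0.69 ± 0.20 for testosterone minus vehicle (SE, n = 4 each), or 0.546 and 0.619 of the vehicle level, with adjusted p = 0.159 and 0.235 in limma. Without vehicle animal 5 the differences were -1.07 and -0.89, and limma's adjusted p was 0.0658 for estradiol benzoate and 0.0436 for testosterone, so this animal decides the testosterone call. With the AA arrays only, on which vehicle animal 5 has no value for this probe, the differences were -1.21 and -1.13 (adjusted p = 0.0427 and 0.0313 in limma). The second Cdh6 probe, 21413, in the dimmest 25%, showed smaller differences of -0.15 and -0.13, with vehicle animal 5 far below the rest at -4.09. Without that animal they were -0.48 and -0.46 (adjusted p = 0.205 and 0.217 in limma).

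Cdh17, the liver-intestine cadherin of gut epithelium, lay low on the scale in every animal. It read -3.86, -4.33, -3.80 and -3.67 with estradiol benzoate, -4.18, -4.12, -4.17 and -3.96 with testosterone, and -3.17, -3.80, -3.76 and -3.02 with vehicle. All 4 testosterone animals lay below all vehicle animals, while estradiol benzoate animal 8 lay within the vehicle range and animal 5 at its lower edge. Testosterone minus vehicle was -0.67 ± 0.19 (SE, n = 4 each, adjusted p = 0.227 in limma, exact permutation p = 0.0286) and estradiol benzoate minus vehicle -0.48. Of the other epithelial markers, Epcam, Vil1 and Prom1 were all above vehicle with either hormone and summed to 0.353 to 0.440 with estradiol benzoate, 0.405 to 0.449 with testosterone and 0.290 to 0.355 with vehicle.

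Cdh2, or N-cadherin, joins smooth muscle cells to each other and to endothelium. It read -1.12, -1.07, -1.09 and -1.02 with estradiol benzoate, -0.83, -1.45, -1.07 and -1.42 with testosterone, and -1.78, -1.28, -1.74 and -1.38 with vehicle. Estradiol benzoate animals lay within a narrow band above all vehicle animals, and testosterone animals were spread over both ranges. The differences from vehicle were 0.47 ± 0.15 with estradiol benzoate and 0.35 ± 0.15 with testosterone (SE, n = 4 each, adjusted p = 0.271 and 0.344 in limma). The smooth muscle list of 7 genes had median differences of 0.07 and -0.10, and none of the 7 was called.

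The remaining cadherins had overlapping ranges in every comparison. Cdh1, the E-cadherin of epithelium, read -1.95, -1.20, -1.72 and -1.09 with estradiol benzoate, -1.24, -1.68, -1.19 and -1.31 with testosterone, and -1.52, -1.80, -0.41 and -2.27 with vehicle. Its highest value was in vehicle animal 5, the animal highest in the hepatocyte list. The differences from vehicle were 0.01 and 0.15 with all animals and 0.38 and 0.51 without that one (adjusted p = 0.534 and 0.418 in limma). Cdh3, or P-cadherin, differed by 0.10 with estradiol benzoate and 0.50 with testosterone, with testosterone animals at -0.62, -0.83, -1.08 and -1.76. Cdh13, the membrane-anchored T-cadherin that binds adiponectin, averaged 0.37 ± 0.31 with estradiol benzoate, 0.60 ± 0.60 with testosterone and 0.79 ± 0.35 with vehicle (SD, n = 4 each). Cdh16, the kidney-specific cadherin, differed from vehicle by -0.03 with either hormone, and by -0.18 with either without vehicle animal 5.

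**Figure D4:**
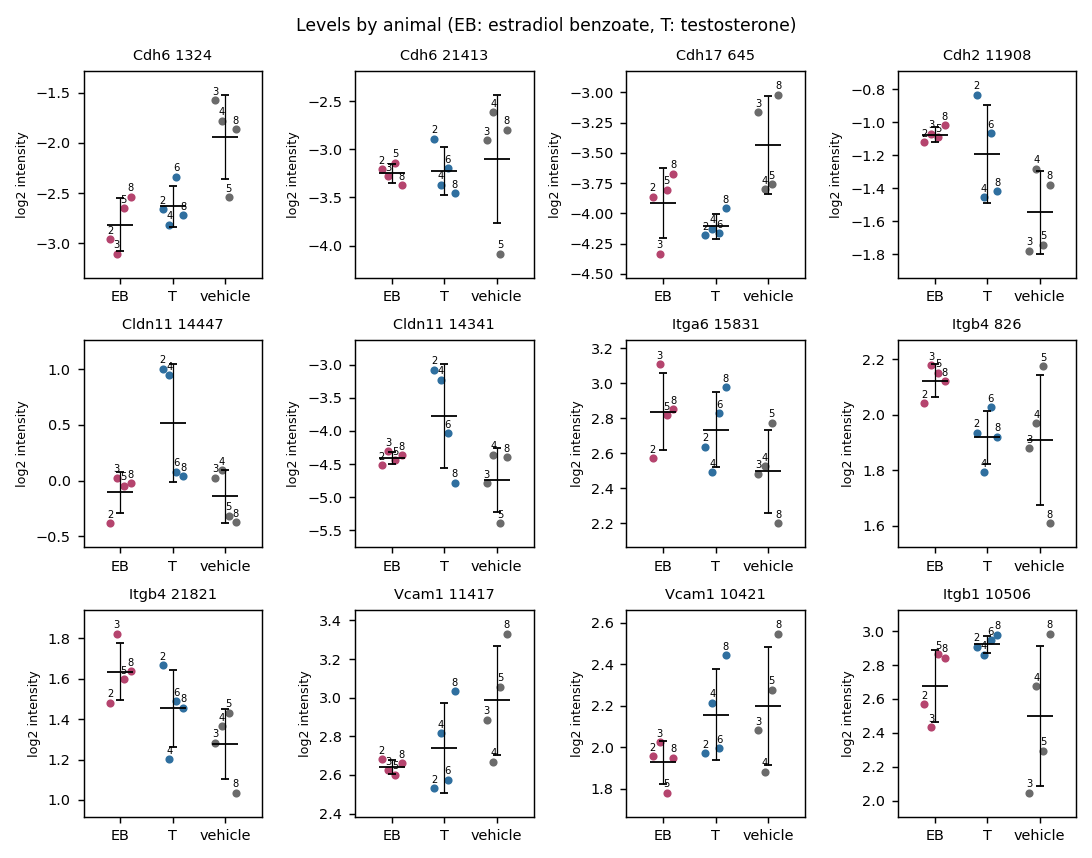
Log2 intensity (y axis) of 12 probes is plotted by animal, with the animal's number beside each point, for estradiol benzoate (EB), testosterone (T) and vehicle, with the group mean as a line and bars of 1 SD (n = 4 each). Of these 12 probes, Cdh17 (testosterone) and Cdh2 and Itgb4 probe 21821 (estradiol benzoate) show a hormone group clear of vehicle, and Cldn11 shows testosterone animals 2 and 4 above all others.

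Both protocadherins, neuronal adhesion molecules in the main, differed from vehicle by 0.32 or less. Pcdhb12 read -2.03, -1.75, -1.85 and -1.77 with estradiol benzoate, -1.69, -1.68, -1.65 and -1.52 with testosterone, and -1.59, -2.09, -2.11 and -2.02 with vehicle. Vehicle animal 3 lay among the testosterone animals, which otherwise were above, and testosterone minus vehicle was 0.32 ± 0.12 (SE, n = 4 each, adjusted p = 0.304 in limma). Pcdh19 differed by -0.14 with estradiol benzoate and -0.21 with testosterone, and by -0.05 and -0.11 without vehicle animal 5.

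The proteins that anchor these contacts differed from vehicle by 0.30 or less with either hormone. Ctnnb1, or beta-catenin, links cadherins to Ctnna1, alpha-catenin, and so to actin, and also carries the Wnt signal. Ctnnb1 differed from vehicle by 0.13 with estradiol benzoate and 0.26 with testosterone, and Ctnna1 by 0.01 and 0.14. Across the 12 animals Ctnnb1 correlated with Cdh2 at r = 0.71 and rho = 0.67 (permutation p = 0.00995 and 0.0203, adjusted p = 0.0332 and 0.0578 over 10 probe pairs). Without vehicle animals 5 and 3, the farthest from the median of Cdh2, r was 0.31, so this relation leans on those animals. With each group's mean removed, r over all 12 animals was 0.76. Jup, the plakoglobin of desmosomes and adherens junctions, read 0.26, 0.70, 0.63 and 0.44 with estradiol benzoate, 0.26, 0.44, 0.42 and -0.04 with testosterone, and 0.22, 0.28, 0.55 and -0.22 with vehicle. Its estradiol benzoate difference was 0.30 with overlapping ranges. Tjp1, or ZO-1, the scaffold of tight junctions, had one of the narrowest intervals: its 95% interval was -0.26 to 0.15 for estradiol benzoate minus vehicle and -0.23 to 0.19 for testosterone minus vehicle.

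Claudin probes were all above vehicle with either hormone, 5 of 5, with medians of 0.31 for estradiol benzoate and 0.62 for testosterone, and none passed the test. Of the 5, 4 are in the dimmest 25% of all probes, and vehicle animal 5, which also holds the array with 665 blank spots, was lowest on 4 of them. Without that animal the medians were 0.08 and 0.33, and for estradiol benzoate 4 of 5 probes lay above vehicle. Over the whole dimmest 25%, 2557 probes, the medians were 0.01 and 0.03. A list of 3 epithelial genes, 2 of them in the dimmest 25%, was also lowest in vehicle animal 5, at -0.64 from its mean over the animals. Its median differences from vehicle were 0.22 with estradiol benzoate and 0.49 with testosterone, with 0 called. Epithelial Cdh1 was instead highest in vehicle animal 5, at -0.41. How far signal near background or epithelial cells set the claudin values was not tested.

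Cldn11, which seals the myelin of oligodendrocytes and the barrier of the testis, was measured by 2 probes. Its promoter is shown for the single arms of an estrogen response element in it. The 250 bases before its start lie at chr2:114149540-114149789 on the minus strand (RefSeq, GRCr8), with capitals for motif matches.
Cldn11: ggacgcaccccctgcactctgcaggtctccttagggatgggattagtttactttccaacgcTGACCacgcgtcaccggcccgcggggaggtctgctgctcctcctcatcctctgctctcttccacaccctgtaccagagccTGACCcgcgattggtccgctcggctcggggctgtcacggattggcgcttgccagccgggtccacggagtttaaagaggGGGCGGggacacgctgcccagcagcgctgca
The capitals are 2 single arms GGTCA, here as TGACC on the other strand, 189 and 109 bases before the start, and 1 Sp1 motif GGGCGG 31 bases before it. Single arms were in 7 of 25 member genes, beside 35.4% of all promoters. Cldn11 probe 14447 read -0.38, 0.03, -0.05 and -0.02 with estradiol benzoate, 1.00, 0.94, 0.08 and 0.04 with testosterone, and 0.03, 0.10, -0.31 and -0.37 with vehicle. Testosterone animals 2 and 4 stood above all other animals, and testosterone animals 6 and 8 lay at the upper end of the rest. Probe 14341 ordered the testosterone animals alike, at -3.08, -3.23, -4.03 and -4.78, against -4.52, -4.30, -4.44 and -4.37 with estradiol benzoate and -4.79, -4.36, -5.39 and -4.39 with vehicle. Testosterone minus vehicle was 0.66 ± 0.23 and 0.96 ± 0.34 (SE, n = 4 each, adjusted p = 0.277 and 0.289 in limma). Estradiol benzoate minus vehicle was 0.04 and 0.33, and without vehicle animal 5 it was -0.02 and 0.11. For probe 14447 it was also under 0 when vehicle animal 8 was left out (-0.04) or when estradiol benzoate animal 3 was (-0.01).

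The other claudins were Cldn10, Cldn7 and Cldn3, epithelial tight junction proteins. Cldn10 read -6.53, -6.38, -5.44 and -5.37 with estradiol benzoate, -6.17, -6.16, -6.59 and -6.28 with testosterone, and -6.22, -6.73, -7.01 and -6.70 with vehicle. Estradiol benzoate animals 5 and 8 were high and animals 2 and 3 within the vehicle range, for a difference of 0.73 ± 0.27 (SE, n = 4 each, adjusted p = 0.304 in limma). The SD between the 2 arrays of an animal was 0.94 for Cldn10, more than this difference, so its values per animal are imprecise. Cldn7 read -3.04, -2.96, -3.25 and -3.17 with estradiol benzoate, -2.73, -3.07, -3.06 and -2.98 with testosterone, and -3.11, -3.07, -4.05 and -3.37 with vehicle. Testosterone minus vehicle was 0.44 for Cldn7, and 0.22 without vehicle animal 5. Cldn3 differed by 0.31 with estradiol benzoate and 0.62 with testosterone, and by 0.02 and 0.33 without that animal. Between the 2 arrays of an animal the SD was 1.06 for Cldn3, again more than its differences, and 0.19 for Cldn7. Cldnd1, a claudin-like membrane protein outside the family, differed by 0.12 and 0.14, and by -0.01 and 0.01 without vehicle animal 5.

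The endothelial connexins differed from vehicle by 0.30 or less with either hormone, with overlapping ranges at each probe. Gja4, a connexin of arterial endothelium, read 1.75, 1.41, 1.80 and 1.76 with estradiol benzoate, 1.90, 1.86, 1.59 and 1.68 with testosterone, and 1.84, 1.92, 1.74 and 1.74 with vehicle. Estradiol benzoate animal 3, the animal highest in the pancreas list, was lowest, and the estradiol benzoate difference was -0.13 with it and -0.04 without it. The difference from vehicle had a 95% interval of -0.37 to 0.11 with estradiol benzoate and -0.29 to 0.19 with testosterone. Gja5, the other main endothelial connexin, differed from vehicle by -0.14 and -0.17 at its brighter probe 21738, and by 0.29 and 0.30 at probe 13007, so its probes disagreed. Over the 12 animals Gja4 correlated with probe 21738 at r = 0.64 and rho = 0.66 (permutation p = 0.0287 and 0.0231, adjusted p = 0.0507 and 0.0578) and with probe 13007 at r = 0.21 and rho = 0.31 (permutation p = 0.518 and 0.318). Without vehicle animal 4 and estradiol benzoate animal 3 these r were 0.72 and 0.14. The endothelial list of 10 genes had medians of -0.02 with estradiol benzoate and 0.02 with testosterone and summed to 54.4 to 67.4 with estradiol benzoate, 61.3 to 74.7 with testosterone and 60.9 to 72.1 with vehicle.

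Gjb1, a connexin of hepatocytes and Schwann cells, differed from vehicle by 0.17 with estradiol benzoate and 0.09 with testosterone at probe 21925, where testosterone animal 2 had no value, and by 0.09 and 0.12 at probe 20917. In vehicle animal 5, highest in the hepatocyte list, Gjb1 read -0.11 at probe 21925 and -3.46 at probe 20917, within the range of the other animals. At probe 21925 that was the highest vehicle value, and without this animal the differences from vehicle were 0.24 and 0.16. A relation of Gjb1 to the hepatocyte genes was not tested. Gjd2, the connexin of neurons, read -3.44, -3.74, -3.74 and -3.70 with estradiol benzoate, -3.63, -3.39, -3.57 and -3.64 with testosterone, and -3.21, -3.36, -3.42 and -3.43 with vehicle. Estradiol benzoate animals all lay below vehicle, with animal 2 closest, and the difference was -0.30 ± 0.10 (SE, n = 4 each, adjusted p = 0.271 in limma, exact permutation p = 0.0286). Its testosterone difference was -0.20. Gja3 of the lens, Gjb5 and Gjb6 of epithelia, and Gja6 were all in the dimmest 25% with means of -4.51 or lower, and their differences from vehicle spanned -0.46 to 0.17. Gja6 had no value in estradiol benzoate animal 2. The SD between the 2 arrays of an animal was 1.41 for Gja3, 1.40 for Gjb6, 0.75 for Gja6 and 0.24 for Gjb5.

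Set against each other, the hormone groups gave a median absolute difference over the members of 0.13, beside 0.17 for estradiol benzoate minus vehicle and 0.20 for testosterone minus vehicle. Estradiol benzoate minus testosterone was -0.62 for Cldn11 probe 14447, with every estradiol benzoate animal below every testosterone animal although the closest animals, at 0.03 with estradiol benzoate and 0.04 with testosterone, were nearly level, and -0.63 for probe 14341. It was 0.20 for Itgb4 probe 826, where all 4 estradiol benzoate animals lay above all 4 testosterone animals, and 0.18 for probe 21821, where they overlapped. Pcdhb12 was lower with estradiol benzoate by -0.22, Cdh3 by -0.40, Vcam1 probe 10421 by -0.23 and Itgam by -0.16, and Itga7 and Cldn10 were higher by 0.21 and 0.37. The median over members was -0.08, against -0.00 over all probes, and adjusted p was 0.999 for each of these in limma.

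Between 40 and 43 of the 48 probes had a 95% interval within 1 log2 unit of 0 in each comparison: 41 for estradiol benzoate minus vehicle, 40 for testosterone minus vehicle and 43 for estradiol benzoate minus testosterone. From the estimate to either end, the interval measured 0.350 in the median, with a range of 0.180 to 1.52. Within 0.5 of 0 lay the intervals of 19, 21 and 26 probes for the same comparisons in that order. A change of 2-fold in either direction thus lay outside the interval for most members, Tjp1, Gja4, Itgb1, Itga6, Itga7, Vcam1 and both catenins among them. For 7 probes with estradiol benzoate and 8 with testosterone it lay inside, among them Cdh6 probe 1324, Cldn3 and Cldn11 probe 14341 in both comparisons.

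Genes that work with the members were counted from 4 lists, chosen with earlier results of these data known. Of the integrin adaptors, which link the integrin tail to actin and to signalling, 18 of 38 were measured, and 0 were called in any comparison. At an unadjusted p under 0.05 they gave 0 higher and 2 lower in each hormone's comparison with vehicle, and 1 higher and 0 lower for estradiol benzoate against testosterone. Against vehicle that is 11.1%, beside 13.5% of all probes for estradiol benzoate and 14.0% for testosterone. Between the hormones it is 5.56%, beside 4.13%. The named ones were Cd47, an integrin-associated receptor (-1.19 for estradiol benzoate minus vehicle and -1.45 for testosterone minus vehicle), Ptk2, the focal adhesion kinase (-0.30 for estradiol benzoate minus vehicle), and Tns3, a focal adhesion tensin (-1.77 for testosterone minus vehicle). Actn2, the muscle alpha-actinin, differed by 1.11 for estradiol benzoate minus vehicle and by 1.77 for estradiol benzoate minus testosterone (adjusted p = 0.380 and 0.691 in limma).

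Of the integrin ligands in the matrix, 17 of 31 were measured and 0 called, with 1 higher and 2 lower at an unadjusted p under 0.05 for each hormone against vehicle. That is 17.6%, beside 13.5% of all probes for estradiol benzoate and 14.0% for testosterone. Postn, or periostin, averaged 5.09 with estradiol benzoate and 5.69 with vehicle, a difference of -0.60 ± 0.15 (SE, n = 4 each, adjusted p = 0.187 in limma). Tnc, or tenascin C, differed by -0.91 and Spp1, or osteopontin, by 0.51 for estradiol benzoate minus vehicle. Between the hormones 1 ligand was higher and 2 were lower with estradiol benzoate at that p: Spp1 by 0.69, Tnc by -1.01 and Postn by -0.36. That is 17.6% of this short list, beside 4.13% of all probes. Fn1, fibronectin, differed by 0.45 and Fbln5, an elastic fibre protein, by -0.28 for testosterone minus vehicle.

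Of the other junction genes, 14 of 47 were measured and 0 called, and Mpdz, a tight junction scaffold, was lowest in p with -0.27 for testosterone minus vehicle. Of the other adhesion receptors, 14 of 27 were measured and 0 called, with 0 higher and 3 lower for estradiol benzoate and 1 higher and 2 lower for testosterone at an unadjusted p under 0.05. That is 21.4% against vehicle for each hormone, beside 13.5% and 14.0% of all probes. The lower ones include the neural adhesion molecule Ncam1 (-0.55 for estradiol benzoate minus vehicle and -0.83 for testosterone minus vehicle), its relative Nrcam (-0.85 and -0.74) and the proteoglycan Vcan (-0.43 for estradiol benzoate minus vehicle). The higher one was Epcam, an epithelial adhesion molecule (0.49 for testosterone minus vehicle). Cdh5, Itgb3, Itgav, Itga1, Itga5, Itga4, Itgal, Gjc1, Cldn1, Cldn5 and Cdh11 were not analysed here.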

How the data were processed

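Cells of the deposited table are linear spot intensity, 1 column per array, for 24 arrays of 12 rats. Per the deposited values, the authors scaled each array to a median just under 1. What scanner software, background correction or filter came first is not given in the sources used here. The 327 values at or below 0 and blank spots were treated as missing, no pseudocount was added before taking log2, and the AA and AB arrays of an animal, made from the same cRNA, were averaged, so that the animal is the replicate. Genes were named from the platform annotation (88 probes with several symbols and 3017 with none were not members), and all 48 members matched RefSeq by gene ID with 0 symbols changed.

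limma 3.58.1 fitted group means (R 4.3.3, lmFit and eBayes, 9 residual and 2.51 prior degrees of freedom) to the 10228 probes measured in 3 or more animals per group, with two-sided tests and Benjamini-Hochberg adjustment over all of them. The same fit was also run on simulated data with known changes. SEs and 95% intervals are those of this fit. The dimmest 25% is by mean log2 intensity over all tested probes. Correlations used 100000 permutations. Precision is limited by 4 animals per group and, for dim probes, by their signal over background.

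The members, the marker and partner lists and the rule for naming were chosen with earlier results of these data known. Named were the 10 members of smallest unadjusted p in each comparison, the 3 brightest of each family, genes with several probes, a set of vascular adhesion genes, and up to 3 genes per partner list and comparison; members outside the rule are mentioned to account for each one. Alternatives are given at the end.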

Additional observations from a re-analysis of the deposited data

Results flagged for a closer look

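Among 142 groups of 4 animals, 2 held an animal whose gap to the nearest other animal exceeded the 95% critical value of Dixon's test, which chance gives in about 1 in 20 groups. Gja4 read 1.41 in estradiol benzoate animal 3, against 1.75 to 1.80 in the other 3 animals of that group. Gjd2 read -3.44 in estradiol benzoate animal 2, against -3.74 to -3.70 in the other 3.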

How the results depend on the processing

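The comparisons were repeated under 22 other settings: another floor, normalization, centring or prior, single arrays, linear means, no dim probes, only the groups compared, a replicate block, and each animal left out. No log2 difference of the 10 members with the smallest p in a comparison changed sign, over 216, 216 and 218 values. Those members were picked for small p in the same data, which makes stable signs likely beforehand. Other members did change sign, such as Itgb1 probe 12032 for estradiol benzoate minus vehicle without vehicle animal 5 (-0.04). Members passing an adjusted p under 0.05 numbered 0 except for Cdh6 probe 1324: 1 with AA arrays only in estradiol benzoate against vehicle (adjusted p = 0.0427) and in testosterone against vehicle (adjusted p = 0.0313), and, leaving out each animal, 0 to 1 in testosterone against vehicle and 0 to 1 in the F test, in both 1 without vehicle animal 5 (adjusted p = 0.0436 and 0.0445). Over all settings limma's lowest adjusted p was 0.0427, 0.0313 and 0.733 in the 3 pairs of groups. The 8 members at an unadjusted p under 0.05 in estradiol benzoate against vehicle became 4 without the dimmest 25%, which leaves 33 members, 5 with AA arrays only and 5 with a replicate block. The 8 in testosterone against vehicle became 5 with AA arrays only, 4 with a replicate block, 5 with only the 2 groups, and 4 to 13 leaving out each animal (4 without testosterone animal 2, 13 without vehicle animal 4, 5 without vehicle animal 5). The 1 between the hormones became 2 with AA or AB arrays only, 4 with a replicate block, 3 with only the 2 groups, and 1 to 3 leaving out each animal (3 without testosterone animal 8, 2 without estradiol benzoate animal 3 or vehicle animals 3 or 8). The 7 in the F test became 4 without the dimmest 25%, 1 with AA arrays only, 4 with a replicate block, and 3 to 10 leaving out each animal (3 without estradiol benzoate animal 8, 4 without estradiol benzoate animal 5). Beyond fewer probes or animals, the cause was not tested. Animals of the same number shared only that number: their deviations from group means correlated between -0.12 and 0.30, so the replicate block pairs nothing known. Depth of signal limits the 15 members in the dimmest 25% most.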
